A study of Mus musculus with 8 samples.

Results

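The alpha and beta chains of the T cell receptor each carry a variable (V) segment, and the 163 mouse V segment genes counted here were taken by symbol from the 32285 genes of the deposited matrices: 128 Trav segments of the alpha chain and 35 Trbv segments of the beta chain. They were read in single-cell RNA libraries of T cells that had entered the pancreas of diabetic NOD mice. In this strain autoimmune T cells destroy the insulin-producing beta cells without any induction. There were 8 libraries in 4 groups. All mice are labelled female NOD animals with spontaneous diabetes, aged 3 to 4 months by one label and 3 to 5 months by the treatment protocol. The active group (1 library) had blood glucose above 600 mg/dl and the onset group (1 library) 250 mg/dl, and both were harvested on day 1 without treatment. The vehicle group (3 libraries) and the PPCA group (3 libraries) started at 200 to 300 mg/dl, were dosed daily and were harvested on days 2, 3 and 4, with 1 library of each group per day. PPCA is nutlin-3 at 50 mg/kg, an inhibitor of MDM2 that stabilises p53, given with MK-1775 at 25 mg/kg, an inhibitor of the cell cycle kinase WEE1. The vehicle was an ethanol, Tween and polyethylene glycol mixture. The labels ask how these drugs change CD4 and CD8 T cells in the pancreas. They do not say how many mice each library holds, so p-values here measure only the spread between libraries.

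A V segment gene is joined to D and J segments (beta) or to a J segment (alpha) while a T cell matures in the thymus, and each cell then mostly expresses one beta chain and one or a few alpha chains. The V segment encodes the receptor loops that touch the MHC molecule and the start of the loop that reads the peptide. CD4 T cells see peptides on class II MHC and CD8 T cells on class I MHC. Foxp3 marks regulatory CD4 T cells, and the chemokine gene Ccl5 is made by effector and memory CD8 T cells. Because the V segment lies at the 5′ end of the receptor transcript and these libraries count the 3′ end, most receptor molecules were counted under the constant genes, and a V segment was caught only in a minority of cells.

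The names hide how alike some of these genes are, so the sequences that separate the copies are shown before the counts. All 163 genes matched GENCODE M21 (mouse build GRCm38) by gene ID, the Trav genes on chromosome 14 and the Trbv genes on chromosome 6. The sequences and the likeness of copies given here are those of this reference. They were not read from the NOD mice, and whether NOD mice carry the same copies and bases was not examined. Part of the Trav array is present in several copies, whose names carry a d or an n. The 3 Trav16 copies below are shown because one of them, Trav16n, had the highest mean share of Trav UMIs. These are the last 90 coding bases of each, with the 2 positions at which the copies differ in capitals.
Trav16: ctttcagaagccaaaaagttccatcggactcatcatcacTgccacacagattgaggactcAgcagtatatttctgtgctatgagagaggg
Trav16d-dv11: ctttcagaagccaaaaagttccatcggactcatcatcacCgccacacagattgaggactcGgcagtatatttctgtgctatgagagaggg
Trav16n: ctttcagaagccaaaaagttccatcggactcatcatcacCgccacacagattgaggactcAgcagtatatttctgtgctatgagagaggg

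The third Trav14 copies are shown because they fell on the CD4 side of the comparison described further on. Capitals mark the 5 positions among the last 90 coding bases at which they differ.
Trav14-3: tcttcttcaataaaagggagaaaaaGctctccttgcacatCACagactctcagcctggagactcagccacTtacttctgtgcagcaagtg
Trav14d-3-dv8: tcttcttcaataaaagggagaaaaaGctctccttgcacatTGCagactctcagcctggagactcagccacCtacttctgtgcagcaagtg
Trav14n-3: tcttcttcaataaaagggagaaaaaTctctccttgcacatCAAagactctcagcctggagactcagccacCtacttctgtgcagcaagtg

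For the beta chain, the last 60 coding bases are given for 7 of the segments that passed the test between CD8 and CD4 cells. Trbv2, Trbv1, Trbv15 and Trbv31 were used more in CD4 cells, and Trbv3, Trbv12-1 and Trbv13-3 more in CD8 cells. Capitals mark the codon of the conserved cysteine with which the peptide-reading loop begins.
Trbv2: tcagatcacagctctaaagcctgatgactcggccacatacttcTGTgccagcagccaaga
Trbv1: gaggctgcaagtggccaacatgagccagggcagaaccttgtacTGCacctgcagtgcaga
Trbv15: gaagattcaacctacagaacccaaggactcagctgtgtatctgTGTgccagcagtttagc
Trbv31: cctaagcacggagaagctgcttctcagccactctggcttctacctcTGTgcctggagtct
Trbv3: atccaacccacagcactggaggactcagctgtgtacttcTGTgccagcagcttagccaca
Trbv12-1: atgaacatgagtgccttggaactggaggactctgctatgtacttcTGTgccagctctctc
Trbv13-3: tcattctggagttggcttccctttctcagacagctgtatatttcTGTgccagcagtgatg

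The last pair, Trav10 and Trbv17, is shown because both were found together in Ccl5-positive CD8 cells of 1 library. Capitals again mark the cysteine codon.
Trav10: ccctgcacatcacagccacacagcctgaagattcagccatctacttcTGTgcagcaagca
Trbv17: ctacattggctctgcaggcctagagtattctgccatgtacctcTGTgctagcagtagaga

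The matrices held 80470 barcodes and 419420275 UMIs, of which 54040 UMIs were Trav and 34808 were Trbv. After filters on genes, mitochondrial share, doublets and T cell transcripts, 70359 T cells remained (6169 to 11539 per library, with a median of 3847 to 6459 UMIs per cell). Those T cells held 47416 Trav and 30633 Trbv UMIs. A library had 4383 to 7726 Trav UMIs and 2274 to 5767 Trbv UMIs. Scaled to 1000000 UMIs of the library (CPM) that is 91.7 (active) to 185 (PPCA day 2) for Trav and 47.6 (active) to 157 (PPCA day 2) for Trbv. The T cell markers summed to 5371 to 7240 CPM, while B and plasma cell markers summed to 108 to 225 CPM, nearly all of it Ighm, and 3 of those 6 genes stayed under 1 CPM in every library. Barcodes were shared between libraries at 14 to 41 per pair over the 28 pairs. In 4 libraries the labels' sex did not match the reads: vehicle days 2 and 3 and PPCA days 3 and 4 had Y-linked transcripts at 186 to 272 CPM and Xist at 0.33 to 0.758 CPM, against at most 0.167 and 417 to 613 CPM in the others. Results are therefore also given without those 4 libraries.

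A few segments made up most of the V segment reads. Usage is the share of all Trav UMIs, or of all Trbv UMIs, that fell on a segment. Whether all segments are caught equally well was not tested, so ranks between segments are ranks of UMIs and not of receptors. Among T cells 9 Trav segments were enough to reach 50% of Trav UMIs and 6 Trbv segments to reach 50% of Trbv UMIs. Trav16n took 10.8% ± 1.88 of Trav UMIs (SD, n = 8 libraries; lowest 9.19, median 9.81, highest 14.6; 5186 UMIs). Trav3-3 followed with 9.22% ± 1.31 (7.36, 9.05 and 11.2; 4432 UMIs). The ranges of these leading alpha segments overlapped, and Trav16n ranked first in 6 libraries and Trav3-3 in the onset and PPCA day 2 libraries. Trav14d-3-dv8 took 6.38% ± 1.35 (4.88, 5.80 and 8.49), Trav5-4 6.23% ± 1.96 (3.67, 6.01 and 9.0), Trav13n-4 4.4% ± 0.841 (3.21, 4.30 and 5.62) and Trav16d-dv11 3.77% ± 0.881 (2.71, 3.76 and 4.71). Neighbours in that order did not differ beyond their spread, apart from the step between Trav3-3 and Trav14d-3-dv8, which was larger than either SD.

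On the beta side Trbv2 ranked first in all 8 libraries, with 14.4% ± 1.55 of Trbv UMIs (lowest 11.3, median 14.7, highest 16.3; 4364 UMIs). Trbv13-2 came next with 10.9% ± 1.40 (8.48, 11 and 12.7; 3405 UMIs), a step larger than either SD. Trbv19 at 7.97% ± 1.01, Trbv13-1 at 7.96% ± 0.711, Trbv1 at 7.53% ± 0.944 and Trbv15 at 6.73% ± 1.17 formed a group whose ranges overlapped. These 6 beta segments rest on 2124 to 4364 UMIs each. Counted once per cell in place of by UMIs, Trbv2 took 11.8% of Trbv detections.

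Many Trav genes drew no reads at all. Of the 128 Trav segments 39 were at 0 UMIs in T cells, 56 had under 10 and 58 had at least 100. Of the 34 Trav genes whose coding sequence in the reference is identical to that of another copy, 27 were at 0, against 12 of the 94 that have no identical copy there. No Trbv segment lies within 5 edits of another, and the 8 Trbv at 0 UMIs are all annotated as pseudogenes. Trav5-4 had 3051 UMIs while Trav5d-4 and Trav5n-4, which differ from it by 6 edits over the coding sequence and by 0 in its last 90 bases, had 0. Trav3-3 had 4432 UMIs while Trav3d-3 and Trav3n-3, identical to each other and 4 edits away, had 1 UMI each. How the authors' counting treated reads that match several copies is not given in the sources used here, so the split of reads among copies of one subgroup is uncertain, and the comparisons were repeated on UMIs summed over a subgroup.

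**Figure D1:**
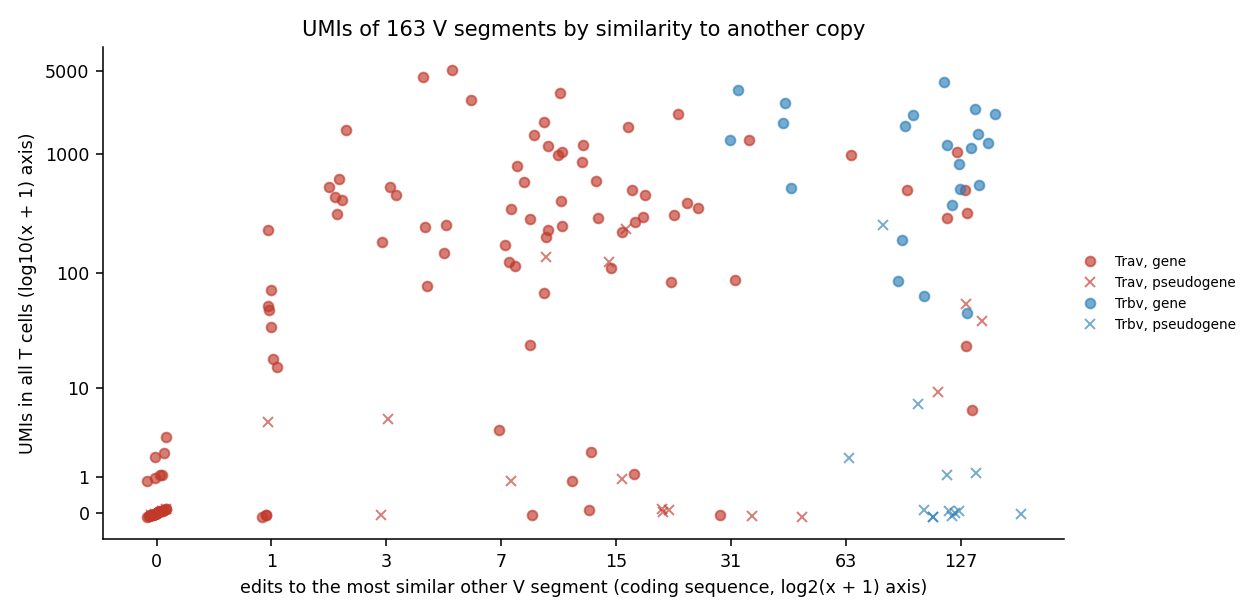
UMIs of each of the 163 V segments in T cells of the 8 libraries (vertical, log axis) against the number of base edits between its coding sequence and that of the most similar other V segment (horizontal, log axis); each point is 1 segment. Trav genes with an identical copy sit mostly at 0 UMIs, and no Trbv segment lies within 5 edits of another.

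CD4 and CD8 cells used different V segments. Cells with at least 1 Cd4 UMI and no Cd8a or Cd8b1 UMI form the CD4 gate (27479 cells with 20029 Trav and 13154 Trbv UMIs), and the reverse forms the CD8 gate (22108 cells with 13986 and 8651). Trav16n was the leading alpha segment of CD8 cells in all 8 libraries, with 19.2% ± 3.19 of Trav UMIs (lowest 14.7, median 18.3, highest 24.4). In CD4 cells it took 6.88% ± 1.51 (4.88, 6.44 and 9.25), and the ranges did not overlap. Trbv2 led the beta chain of CD4 cells in all 8 libraries with 16.8% ± 2.30 (12.9, 17.6 and 19.1), against 8.36% ± 1.91 in CD8 cells (5.96, 8.60 and 10.7). Trav14d-3-dv8 took 7.83% ± 1.21 in CD4 cells (6.09, 7.80 and 9.42) and 3.55% ± 1.24 in CD8 cells (2.29, 3.20 and 5.88), again without overlap.

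**Figure D2:**
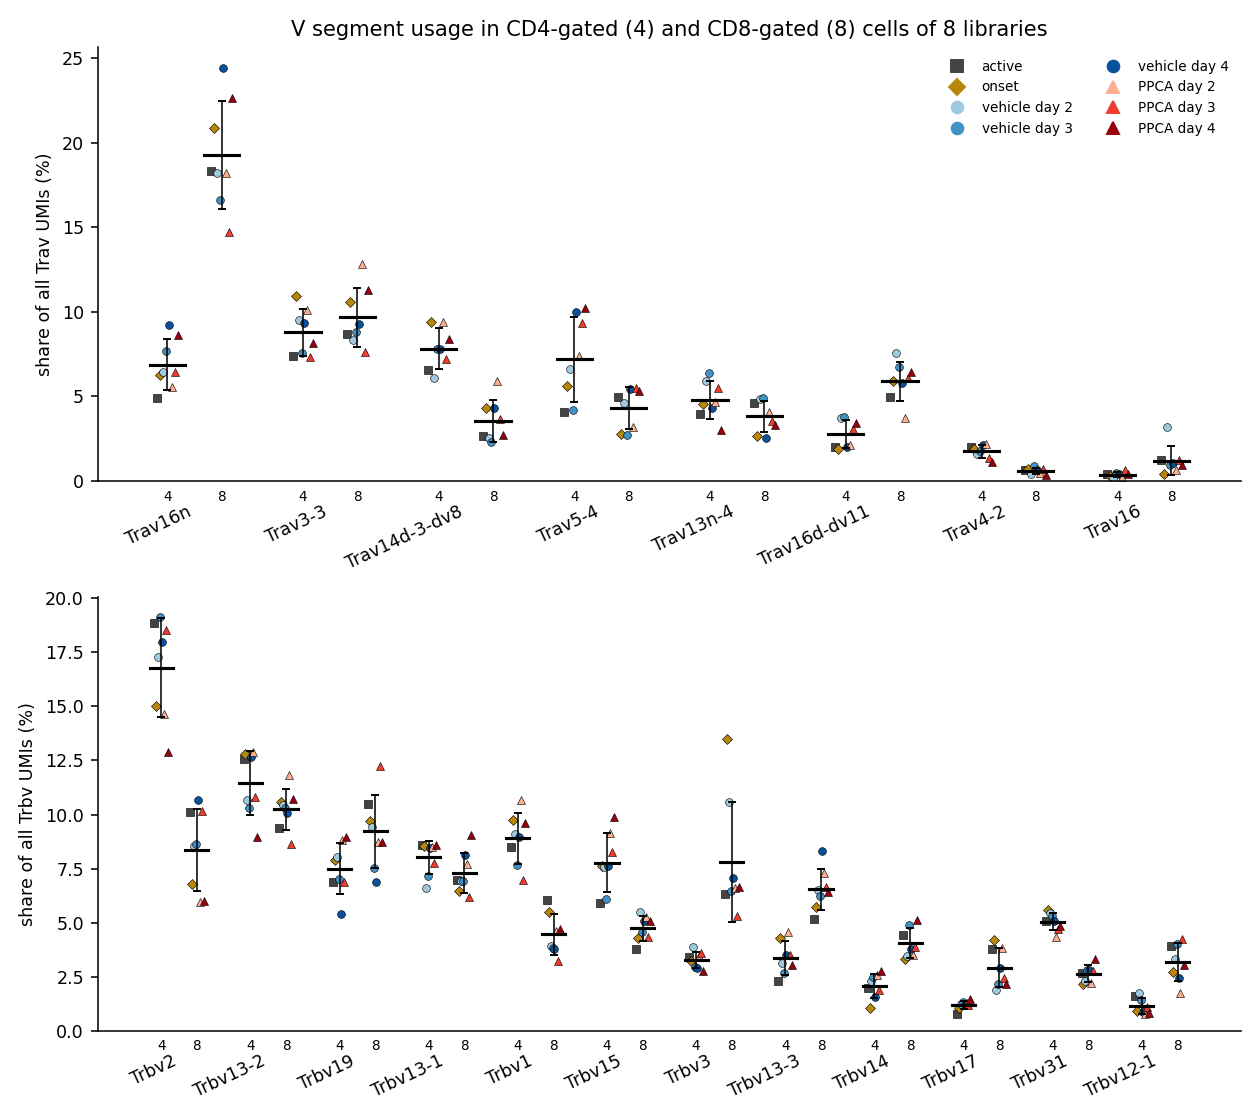
Share of all Trav UMIs (upper) or all Trbv UMIs (lower), in percent, of the named segments in CD4-gated and CD8-gated cells; each point is 1 of the 8 libraries, bars are means and error bars SD. Trav16n sits at 14.7% to 24.4% in CD8 cells and at 4.88% to 9.25% in CD4 cells, and Trbv2 shows the opposite order.

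Tested against all genes on UMIs summed per library and gate, 42 of the 65 V segments with enough counts passed (64.6%, edgeR's quasi-likelihood test, library as block, Benjamini-Hochberg adjusted p under 0.05). Over all 11572 genes tested 46.1% passed, 23.2% higher and 22.9% lower in CD8 cells. The other 98 V segments were too rare to be tested. Of the 46 Trav tested 3 were higher in CD8 cells and 26 lower, with a median log2 fold change of -0.56, and of the 19 Trbv tested 5 were higher and 8 lower, with a median of -0.06. The median over all genes was close to 0 on the same scale. Fewer cells with a segment and less segment RNA per cell cannot be told apart in these summed counts.

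V segments as a whole were less frequent in CD8 cells. All Trav together had 98.0 to 204 CPM in CD4 and 83.1 to 150 CPM in CD8 cells, and all Trbv 54.4 to 169 and 39.8 to 131 CPM, with CD8 below CD4 in each of the 8 libraries. The number of segments called higher or lower therefore depends on the base. Relative to all Trav or all Trbv UMIs, 30 segments passed, 13 higher and 17 lower, where the fit per UMI of all genes gave 8 higher and 34 lower. The receptor constant genes were also lower in CD8 cells on the scale of all genes. Trac, the alpha constant gene, fell by 0.24 (log2), Trbc1 by 0.30 and Trbc2 by 0.19, all in 8 of 8 libraries. Both bases are drawn against each other in the plot of log2 fold changes on the 2 scales.

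**Figure D3:**
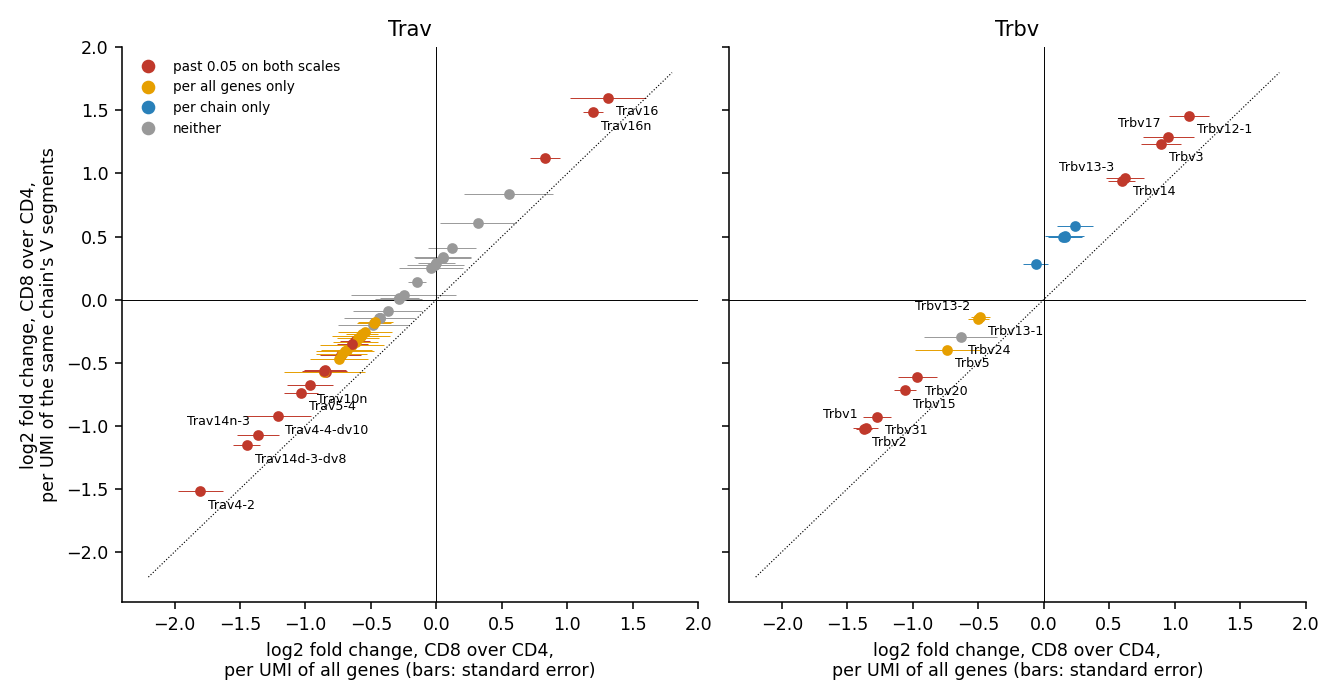
Log2 fold change of V segments in CD8-gated over CD4-gated cells, relative to UMIs of all genes (horizontal, with standard errors) and to UMIs of the same chain (vertical); each point is 1 segment and colour shows on which scale its adjusted p was under 0.05. Trav16n, Trbv12-1 and Trbv3 are higher on both scales, and Trav4-2, Trav14d-3-dv8, Trbv2 and Trbv1 lower on both.

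All 3 Trav16 copies rose in CD8 cells. Trav16n had a mean over libraries of 22.5 CPM in CD8 and 9.92 CPM in CD4 cells (2710 and 1394 UMIs), a log2 fold change of 1.20 ± 0.079 (SE; edgeR's quasi-likelihood test, adjusted p = 7.0e-09). Trav16d-dv11 rose by 0.83 ± 0.12 and Trav16 by 1.31 ± 0.29 (158 UMIs in CD8 and 71 in CD4 cells), and all of these were higher in 8 of 8 libraries. With copies summed the Trav16 subgroup was higher by 1.11, the same direction as each copy. The beta segments that rose were Trbv12-1 by 1.11 ± 0.15, Trbv17 by 0.95 ± 0.19, Trbv3 by 0.90 ± 0.15, Trbv14 by 0.62 ± 0.14 and Trbv13-3 by 0.60 ± 0.10, each in 8 of 8 libraries. Trbv3 took 7.81% ± 2.76 of Trbv UMIs in CD8 cells (5.31, 6.63 and 13.5) and 3.27% ± 0.380 in CD4 cells (2.75 to 3.86). Its spread in CD8 cells came mainly from the onset library at 13.5% and the vehicle day 2 library at 10.6%, while the other 6 lay between 5.31% and 7.08%.

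On the CD4 side, Trav4-2 fell by 1.8 ± 0.17 (log2, edgeR's quasi-likelihood test, adjusted p = 4.2e-07), with 0.607% ± 0.184 of Trav UMIs in CD8 and 1.75% ± 0.374 in CD4 cells. Trav14d-3-dv8 fell by 1.45 ± 0.10, from 11.3 CPM in CD4 to 4.24 CPM in CD8 cells, and its copy Trav14n-3 by 1.36 ± 0.16. Trbv2 fell by 1.37 ± 0.062, from 15.3 to 5.90 CPM (2182 and 702 UMIs; adjusted p = 7.8e-11), the smallest p among the V segments. The log2 fold change was -1.36 ± 0.096 for Trbv1, -1.27 ± 0.11 for Trbv31, -1.06 ± 0.084 for Trbv15 and -0.97 ± 0.18 for Trav10n. Each of these was lower in CD8 cells in 8 of 8 libraries. Trav5-4 fell by 1.03 in 7 of 8. On this scale Trav3-3, second among all alpha segments, did not pass (log2 fold change -0.15, adjusted p = 0.0927 by edgeR's quasi-likelihood test), nor did Trbv19 (-0.06, adjusted p = 0.631). As shares of their chain both had the higher mean in CD8 cells, so their direction depends on the base. Trav3-3 took 9.68% ± 1.75 in CD8 and 8.79% ± 1.38 in CD4 cells, and Trbv19 9.22% ± 1.68 and 7.49% ± 1.18.

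The ranges of usage in the CD4 and CD8 gates did not overlap for 3 Trav (Trav16n, Trav14d-3-dv8 and Trav4-2) and 8 Trbv (Trbv1, Trbv2, Trbv3, Trbv13-3, Trbv14, Trbv15, Trbv17 and Trbv31). Usage is defined for V segments only, so no share of all genes without overlap can be set beside these counts. In the same comparison 46.1% of all genes passed the edgeR test, which is another measure than overlap. Without the 4 libraries with Y-linked transcripts 32 V segments passed, 8 higher and 24 lower. The 2 gates also differed in how evenly the segments were used. The effective number of segments (inverse Simpson index, the number of equally used segments that would give the same concentration) was 21.9 to 32.9 for Trav in CD4 cells and 11.9 to 20.7 in CD8 cells. For Trbv the order was opposite, 11.3 to 13.3 in CD4 and 13.4 to 15.4 in CD8 cells. Neither pair of ranges overlapped.

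Other receptor genes were read from a list of 105 (constant, J, D, gamma and delta segments, CD3 subunits and recombination genes), of which 15 could be tested, 7 rose and 6 fell. The gamma chain genes were the extreme ones: Trgv2 rose by 5.10 (log2), Tcrg-C2 by 4.97, Tcrg-V1 by 4.45 and Tcrg-C4 by 4.03 in CD8 cells. Trdc, the delta constant gene, fell by 0.57. Dntt, the enzyme that adds bases at the joins while receptors are assembled, fell by 1.37. Gamma delta markers (Trdc, Tcrg-C1, Tcrg-C2 and Tcrg-C4) summed to 23.5 to 136 CPM in the CD8 gate and to 7.60 to 17.5 CPM in the CD4 gate, from a sort that required the TCR beta chain at the cell surface. Of these markers Trdc, the only delta gene, went the other way. Their part in the V segment results was not tested.

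Among CD8 cells, those with Ccl5 had more Trav16n and Trbv3 and less of several Trav7 and Trav14 copies. Ccl5-positive CD8 cells held 4279 Trav and 2663 Trbv UMIs, and Ccl5-negative ones 9707 and 5988. Of 31 V segments tested 14 passed (45.2%, edgeR's quasi-likelihood test), 3 higher and 11 lower, where 41.5% of all genes passed, 19.5% higher and 22% lower. The share of called V segments is thus near the background. The remaining 132 were too rare to test. Without the 4 libraries with Y-linked transcripts 9 passed, 3 higher and 6 lower. Medians were -0.27 for Trav and -0.13 for Trbv (log2), beside -0.02 for all genes. Each library is its own control in this fit.

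Trbv3 had 8.27 CPM in Ccl5-positive and 4.44 CPM in Ccl5-negative CD8 cells (305 and 345 UMIs), a log2 fold change of 0.84 ± 0.19 (edgeR's quasi-likelihood test, adjusted p = 9.5e-04; higher in 6 of 8 libraries in CPM). Its usage was 11.5% ± 5.81 in Ccl5-positive cells, with 4.55% in the active library, 21.1% in onset, 18.6%, 11.1% and 12.2% in vehicle days 2, 3 and 4, and 7.12%, 6.60% and 10.3% in PPCA days 2, 3 and 4. In Ccl5-negative cells it stayed between 4.67% and 7.62%. The onset and vehicle day 2 libraries thus stood well above the others, and the active library was the one in which Ccl5-positive cells had the smaller share. Without the 4 libraries with Y-linked transcripts the log2 fold change was 0.64 with an adjusted p of 0.051 by edgeR's quasi-likelihood test.

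Trav16n had 28.7 CPM in Ccl5-positive and 19.5 CPM in Ccl5-negative CD8 cells (1057 and 1653 UMIs), a log2 fold change of 0.54 ± 0.13 (edgeR's quasi-likelihood test, adjusted p = 0.00222; higher in 6 of 8 libraries). Its usage in Ccl5-positive cells was 22.1% in the active and 28.8% in the onset library. The vehicle libraries of days 2, 3 and 4 had 24.0%, 23.9% and 39.2%, and the PPCA libraries 24.8%, 10.4% and 22.2%. Ccl5-negative cells had 13.9% to 22.8%. The highest value, in vehicle day 4, was 166 of 424 Trav UMIs from 107 cells (exact binomial 95% interval 34.5% to 44.0%). Ccl5-positive cells were below Ccl5-negative cells in PPCA day 3, at 10.4% against 15.6%, and in PPCA day 4, at 22.2% against 22.8%. Trbv16 rose by 0.47 ± 0.15 (adjusted p = 0.0154 by the same test) with 17.2% of Trbv UMIs in PPCA day 2. Without that library its log2 fold change was 0.31 with an adjusted p of 0.136 by edgeR's quasi-likelihood test.

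**Figure D4:**
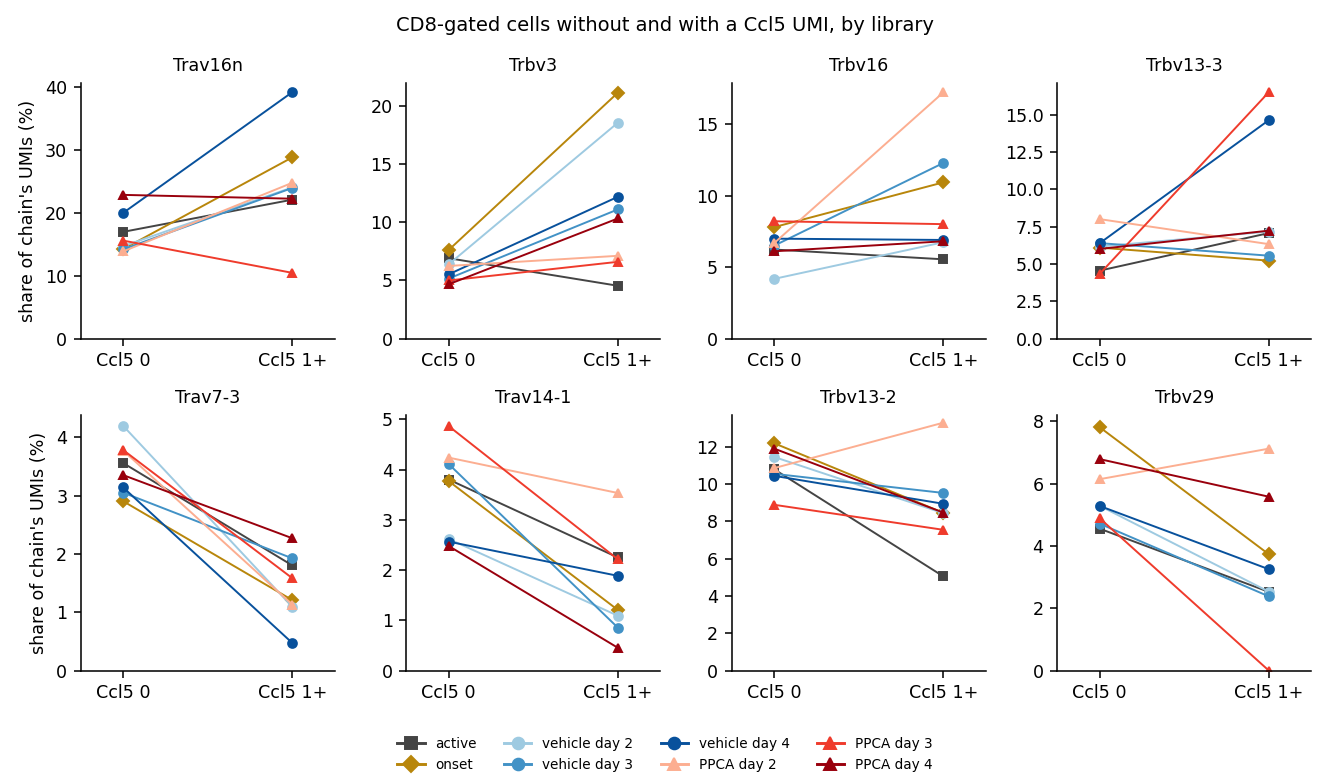
Usage, in percent of all Trav or Trbv UMIs, of 8 V segments in CD8-gated cells without and with a Ccl5 UMI; each line joins the values of 1 library. With Ccl5 the share of Trav16n is higher in 6 and that of Trbv3 in 7 of the 8 libraries, and that of Trav7-3 is lower in all 8.

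Of the 11 segments that fell, several were lower in Ccl5-positive cells of every library. Trav7-3 had 0.472% to 2.27% of Trav UMIs in Ccl5-positive cells and 2.90% to 4.19% in Ccl5-negative cells, without overlap. It fell by 1.22 ± 0.22 (log2, edgeR's quasi-likelihood test, adjusted p = 1.0e-04) in 8 of 8 libraries. Trav14-1 fell by 1.14 ± 0.21, Trav8d-1 by 1.08 ± 0.26 and Trav14d-3-dv8 by 0.70 ± 0.18, each in 8 of 8. With copies summed, the Trav14 subgroup fell by 0.92 and the Trav7 subgroup by 0.98. Among beta segments, Trbv12-1 fell by 0.89 in 7 of 8 libraries, although it was higher in CD8 than in CD4 cells. Trbv29 fell by 0.71 ± 0.22 and Trbv13-2 by 0.35 ± 0.12, in 8 of 8 libraries on the CPM scale. As a share of Trbv UMIs both were higher in the Ccl5-positive cells of PPCA day 2.

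From the receptor list 12 genes were tested in this comparison, of which 5 rose and 4 fell. Tcrg-C2 rose by 5.95 and Trgv2 by 5.71 (log2), while Trbc1 fell by 0.37, Cd247 by 0.35 and Trdc by 1.03. The log2 fold change of Trac was 0.03 and that of Trbc2 0.06, and neither passed. Gamma delta markers summed to 84.0 to 286 CPM in Ccl5-positive and to 6.78 to 15.9 CPM in Ccl5-negative CD8 cells. Trdc, the only delta gene among these 4 markers, went against that sum. Myeloid markers summed to 128 to 198 and 105 to 132 CPM, with 2 and 3 of the 6 genes under 1 CPM in every library. B and plasma cell markers summed to 65.3 to 173 and 120 to 254 CPM, with 4 and 3 of 6 genes under 1 CPM. The part of these in the V segment differences was not tested.

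In Ccl5-positive CD8 cells 5 alpha segments had at least 10% of Trav UMIs in exactly 1 library, a list drawn up after the values were seen. Of these Trav10, Trav12-1 and Trav4-4-dv10 were under 2% in each of the other 7. Trav3-3 reached that share in 2 libraries, with 12.6% in PPCA day 4 and 11.3% in PPCA day 2. Trav10 took 12.1% in the onset library (70 of 580 Trav UMIs, in 49 cells) and 0 to 1.27% in the other 7. Trav12-1 took 12.3% in PPCA day 3 (39 of 316 UMIs, 27 cells), where it ranked first, and at most 0.517% elsewhere. Trav4-4-dv10 took 10.0% in vehicle day 3 (47 of 468 UMIs, 26 cells) against at most 1.90% elsewhere. Trav13-2 took 11.5% in the active library (51 of 444 UMIs, 28 cells) against 0.794% to 6.55%, and Trav16d-dv11 13.3% in vehicle day 2 (61 of 458 UMIs, 36 cells) against 3.68% to 8.97%. These are single libraries and carry no test.

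The leading Trbv of Ccl5-positive CD8 cells was Trbv3 in 2 libraries, Trbv16 in 2, Trbv13-3 in 2, Trbv19 in 1 and Trbv13-1 in 1. Trbv13-3 took 16.5% in PPCA day 3 and 14.6% in vehicle day 4, and 5.22% to 7.23% in the other 6. Trbv13-1 took 15.7% in PPCA day 4 (76 UMIs, 64 cells) and 5.49% to 7.54% elsewhere. Trbv19 took 12.6% in the active library and at most 9.70% elsewhere, and Trbv13-2 13.3% in PPCA day 2 and at most 9.52% elsewhere. In Ccl5-negative cells Trbv13-2 led in 5 of the 8 libraries. The effective number of Trav segments was 5.68 to 17.9 (median 11.2) in Ccl5-positive and 12.5 to 21.1 (median 18.3) in Ccl5-negative CD8 cells, and for Trbv 10.5 to 14.3 (median 11.7) and 13.6 to 15.8 (median 14.8). Both pairs of ranges overlapped, and the Ccl5-positive shares rest on fewer UMIs.

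**Figure D5:**
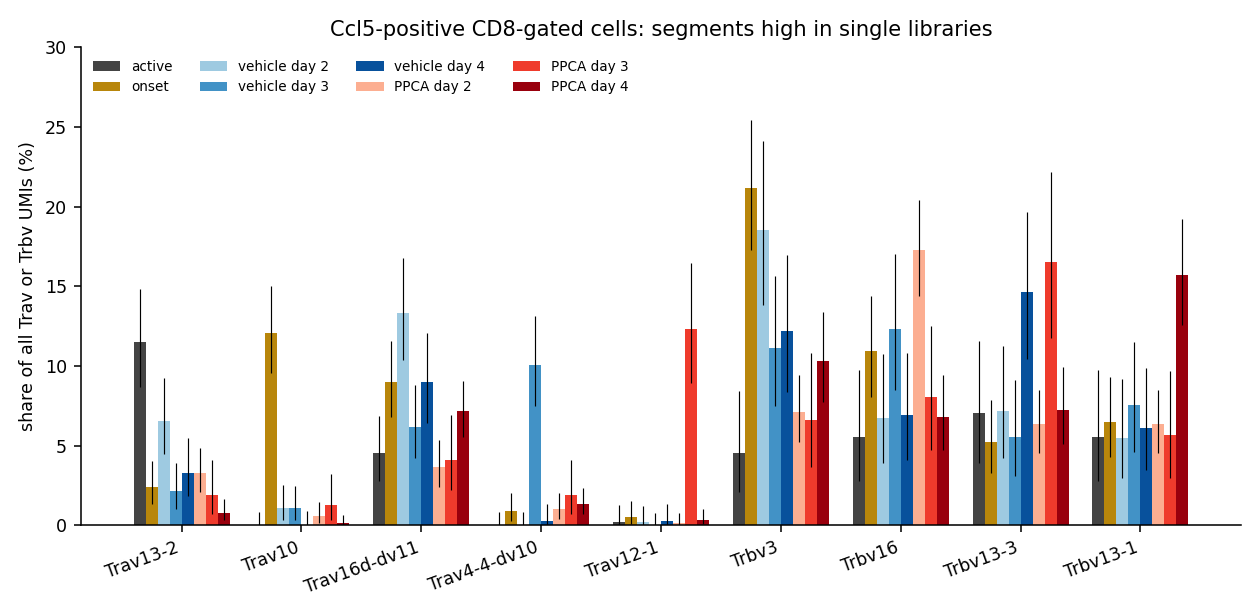
Share of all Trav or Trbv UMIs, in percent, of 9 segments in Ccl5-positive CD8-gated cells; bars are the 8 libraries and error bars exact 95% binomial intervals, which cover counting error only. Trav10 is high only in onset, Trav12-1 only in PPCA day 3 and Trav4-4-dv10 only in vehicle day 3.

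Single cells with both chains read give the pairs behind these shares. At least 1 Trav UMI was found in 39.3% of T cells, at least 1 Trbv UMI in 32.0% and both in 13.5%. Exactly 1 Trav and 1 Trbv segment were read in 6624 cells. The 3 most frequent pairs joined leading segments: Trav3-3 with Trbv13-2 in 88 cells, Trav3-3 with Trbv2 in 86 and Trav14d-3-dv8 with Trbv13-2 in 69. The products of the segments' frequencies within each library, summed over libraries, come to 75.9, 76.0 and 54.0 cells.

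Trav16n, Trbv3, Trbv13-3 and Trbv17 were used more in CD8 cells, so the products of their pairs are given within the CD8 gate. Trav16n with Trbv3 was seen in 52 T cells, of which 42 were CD8-gated, 2 CD4-gated and 38 Ccl5-positive. Within the CD8 gate the product gives 23.1 cells, and in that gate of the onset library 20 were seen where it gives 6.83. The count was also above the product in vehicle days 2 and 3 and PPCA day 2. It was below the product in the active library, vehicle day 4 and PPCA days 3 and 4, with 0 to 3 cells each. Both segments were also used more in Ccl5-positive CD8 cells, and no product is given within that class. Trav16n with Trbv13-3 was seen in 49 T cells, of which 30 were Ccl5-positive and 38 CD8-gated, where the product within the gate gives 21. In the CD8 gate of vehicle day 4 there were 18 such cells (product 6.66) and in that of PPCA day 4 11 (product 3.94). The remaining libraries had 0 to 3 each, where the products are 0.91 to 3.08. Trav10 with Trbv17 was seen in 11 cells, all of the onset library, all CD8-gated and all Ccl5-positive. The product is 1.10 within the CD8 gate of that library and 0.49 over all its T cells. These pairs were picked after their values were seen. The junction sequences that would tell whether such cells share 1 receptor were not analysed here.

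Many cells showed more than 1 segment of a chain. Of the 6006 T cells with at least 2 Trbv UMIs, 30.5% had 2 or more different Trbv segments, and of the 10996 with at least 2 Trav UMIs, 54.5% had 2 or more Trav segments. Summed over subgroups, 29.2% (exact 95% interval 28.1% to 30.4%) had 2 or more Trbv. For Trav the share with 2 or more subgroups was 40.4%. Among barcodes removed as likely doublets the share with 2 or more Trbv subgroups was 48.7% (45.3% to 52.2%, 408 of 837). Another 37 barcodes had at least 3 UMIs of B or myeloid genes and none of the 6 T cell genes, which include Trac, Trbc1 and Trbc2. No V segment UMI was found in them, at a median of 3991 UMIs against 4817 in T cells, which allows a share of up to 8.11%. Barcodes with receptor constant transcripts were left out by that choice, so this 0 does not measure stray receptor RNA.

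Foxp3-positive CD4 cells had less Trav14d-3-dv8 than the other CD4 cells. They held 692 Trav and 629 Trbv UMIs, against 19337 and 12525 in Foxp3-negative CD4 cells. Of 39 V segments tested 3 passed, all lower (7.69%, edgeR's quasi-likelihood test), where 30.2% of all genes passed and 15.4% were lower. The other 124 were too rare to test. Trav14d-3-dv8 fell by 1.30 ± 0.26 (log2, adjusted p = 1.3e-04 by that test) in 8 of 8 libraries, with 32 and 1560 UMIs or 5.66 and 12.7 CPM. Its usage was 5.35% ± 2.64 in Foxp3-positive and 7.94% ± 1.28 in Foxp3-negative cells. The median over the Trav tested was -0.59 and over the Trbv -0.12 (log2), beside -0.03 for all genes. Relative to all Trav UMIs the log2 fold change of Trav14d-3-dv8 was -0.79 (adjusted p = 0.0222 by edgeR). Trav13n-4 fell by 0.89 ± 0.32 in 6 of 8 libraries (26 and 930 UMIs) and Trav16n by 0.74 ± 0.27 in 7 of 8 (41 and 1353 UMIs).

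Those latter calls were not firm. Relative to all Trav UMIs the log2 fold changes were -0.36 for Trav13n-4 and -0.22 for Trav16n, and neither passed. With copies summed, on the scale of all genes, the Trav13 subgroup had -0.68 (adjusted p = 0.017 by edgeR's quasi-likelihood test). The Trav16 subgroup had -0.71 (adjusted p = 0.021 by that test), so both subgroups did pass. With cells thinned to 2000 UMIs Trav16n turned to 0.14. Without the 4 libraries with Y-linked transcripts 2 segments passed, and Trav16n had -0.47 with an adjusted p of 0.437 by edgeR's quasi-likelihood test. Leaving out PPCA day 2 gave Trav13n-4 -0.58 (adjusted p = 0.194 by that test), and leaving out vehicle day 2 gave Trav16n -0.59 (adjusted p = 0.126). Trbv2 had the highest mean share of the beta segments in both classes, with 16.8% ± 7.54 in Foxp3-positive and 16.8% ± 2.48 in Foxp3-negative CD4 cells (log2 fold change -0.12, adjusted p = 0.681 by edgeR). In Foxp3-positive CD4 cells it ranked first in 4 of 8 libraries (in PPCA day 4 together with Trbv13-2), Trbv19 in 2, and Trbv13-1 and Trbv13-2 in 1 each, against 8 of 8 for Trbv2 in Foxp3-negative CD4 cells. Trbv3 had 0.76 with an adjusted p of 0.083 and Trbv15 -0.71 with 0.0576. B and plasma cell markers summed to 215 to 466 CPM in Foxp3-positive and to 104 to 212 CPM in Foxp3-negative CD4 cells, with 2 and 3 of the 6 genes under 1 CPM in every library. Myeloid markers summed to 132 to 203 and 110 to 132 CPM, also with 2 and 3 of 6 genes under 1 CPM. The part of both lists in these values was not tested. Of the receptor list 9 genes were tested, none rose, and Cd247 (0.35), Trac (0.22) and Cd3d (0.17) fell by the log2 values given.

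Over all T cells with a Foxp3 UMI, whether or not in the CD4 gate (2569 cells with 1407 Trav and 1326 Trbv UMIs), Trbv2 took 15.6% ± 3.55 of Trbv UMIs (12.4 to 23.1). Trav3-3 took 9.58% ± 3.77 of Trav UMIs (4.52 to 14.1). Over all T cells with a Ccl5 UMI (12321 cells, 8266 Trav and 5527 Trbv UMIs), Trav16n led in all 8 libraries with 16.6% ± 3.29 (11.5 to 22.7). Trbv2 led the beta chain in 4 of them with a mean of 11.1% ± 2.81. These classes hold cells of both gates, so their shares move with the mix of CD4 and CD8 cells.

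No V segment passed the test between PPCA and vehicle libraries. In CD4 cells 0 of 69 V segments passed (edgeR's quasi-likelihood test with harvest day as block, 3 libraries against 3), with 6 at an unadjusted p under 0.05. Of all 11617 genes 0% passed as well. In CD8 cells 0 of 59 passed, with 6 at an unadjusted p under 0.05, and 0.0172% of all 11614 genes passed (0.00861% higher and 0.00861% lower). DESeq2 also passed 0 V segments in both. The other 94 and 104 segments were too rare to test. All Trav together had 161, 106 and 141 CPM in the CD4 cells of vehicle days 2, 3 and 4 and 204, 168 and 159 CPM in PPCA, and all Trbv 96.8, 66.3 and 93.2 against 169, 101 and 88.3 CPM. PPCA was thus higher on each day for Trav and on days 2 and 3 for Trbv. The single segments lay above the middle of all genes without passing: the median log2 fold change was 0.32 for Trav and 0.44 for Trbv in CD4 cells, and 0.14 and 0.43 in CD8 cells, beside about 0 for all genes.

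Trbv19 had an unadjusted p under 0.05 by edgeR in both gates and did not pass after adjustment. In CD4 cells Trbv19 had a log2 fold change of 0.65 ± 0.17 (unadjusted p = 0.00592, adjusted p = 0.631 by edgeR), and in CD8 cells 0.73 ± 0.19 (unadjusted p = 0.00495, adjusted p = 0.453). Its usage in CD8 cells was 9.41%, 7.52% and 6.89% in vehicle days 2, 3 and 4 and 8.74%, 12.2% and 8.75% in PPCA, so the order differed between days. Trbv15 in CD4 cells took 7.60%, 6.09% and 7.60% of Trbv UMIs in vehicle and 9.14%, 8.29% and 9.89% in PPCA, higher on each day (adjusted p = 0.655 by edgeR on the CPM scale). Trbv2 in CD4 cells took 17.3%, 19.1% and 18.0% in vehicle and 14.7%, 18.5% and 12.9% in PPCA, lower on each day as a share of Trbv UMIs. On the CPM scale its log2 fold change was 0.12 (adjusted p = 0.922 by edgeR), so the direction depends on the base. Trav16n in CD8 cells took 18.2%, 16.6% and 24.4% in vehicle and 18.2%, 14.7% and 22.6% in PPCA, and the day 4 libraries were the highest of both groups. Trav5-4 in CD4 cells took 6.60%, 4.22% and 10.0% in vehicle and 7.39%, 9.34% and 10.2% in PPCA. The libraries with Y-linked transcripts are spread unevenly over these pairs (vehicle on day 2, both on day 3, PPCA on day 4). With Y-linked transcripts as a further factor, which leaves 1 residual degree of freedom, 0 V segments passed in CD4 cells and 4 in CD8 cells, among 375 genes in all.

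The CD8 to CD4, Foxp3 and Ccl5 differences were also compared between PPCA and vehicle libraries, by an interaction term. No V segment passed: 0 of 73, 0 of 56 and 0 of 42, with 4, 4 and 7 at an unadjusted p under 0.05, where 1 of 12154, 26 of 11463 and 0 of 10989 genes passed (edgeR's quasi-likelihood test with 4 residual degrees of freedom). The smallest adjusted p were 1, 0.564 and 0.829. A p that misses the threshold with 3 libraries a group does not show that the treatments leave V usage alike.

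The active and onset libraries can only be set side by side, since each group has 1 library. Trbv3 took 6.32% of CD8 Trbv UMIs in the active and 13.5% in the onset library. Trav16n took 18.3% and 20.9% of CD8 Trav UMIs, and Trav13-2 6.29% and 2.99%. In CD4 cells Trbv2 took 18.9% and 15%, and Trav14d-3-dv8 6.54% and 9.38%. Trav10 took 6.54% of Trav UMIs in the CD8 cells of the onset library and 0.274% to 0.983% in those of the other 7 libraries. The 3 vehicle and 3 PPCA libraries had Trbv3 in CD8 cells between 5.31% and 10.6%, so the onset library was the highest of all 8 and the active one lay within that range.

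Trav11 and its copies were close to absent. Trav11 encodes the alpha chain of invariant NKT cells, which see lipids on CD1d, and had 18 UMIs in 17 cells. Of those 17 cells 4 had a UMI of Zbtb16, the factor PLZF that these lineages express (23.5%), against 0.189% of all T cells. Trav11d had 0 UMIs and Trav11n 1. Trav1 is used by MAIT cells, which see microbial vitamin B metabolites on MR1, and had 346 UMIs in 251 cells. Only 1 of those cells had Zbtb16 (0.398%), and 94 were CD4-gated and 82 CD8-gated. The log2 fold change of Trav1 in CD8 over CD4 cells was 0.05 and did not pass.

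The authors' deposited table of cluster markers holds 2100 rows over 7 clusters, and Trav16n is the only V segment in it. It is listed for the cluster the authors call CD8 TRM TEM (702 rows), with an average log2 fold change of 0.34 and an adjusted p of 5.01e-107. The table does not name its test or its cells.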

How the data were processed

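The 8 samples were single-cell 3′ libraries (version 2 kit per the labels) of CD45+ CD3+ TCRβ+ cells sorted from pancreas and frozen before joint processing. The deposited matrices hold raw UMI counts per gene and barcode. They were made with cellranger 6.0.0 per the file headers and Cell Ranger 6.1.2 per the submitters' processing notes, which also name Seurat. Which genome build was used is not given in the sources used here. For each cluster marker the authors' deposited table gives an average log2 fold change and an adjusted p-value, with no test named per the file headers or the labels.

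Cells with at least 500 genes and under 10% mitochondrial UMIs were kept, the highest Scrublet scores (scanpy 1.11.5, Python 3.11.15; 0.8% per 1000 barcodes) were removed as doublets, and T cells needed at least 2 UMIs over 6 T cell genes and at most 1 over 6 B and myeloid genes. UMIs were summed per library and gate and fitted over all genes with edgeR 4.0.16 in R 4.3.3 (filterByExpr, TMM, glmQLFit, Benjamini-Hochberg adjustment), with library (7 residual degrees of freedom) or harvest day (2) as block. Harvest days come from the labels. Same-day libraries deviated together, with correlations of 0.386, 0.390 and 0.574 in CD4 and 0.412, 0.574 and 0.591 in CD8 cells, so the day was kept as a block. Usage shares carry exact Clopper-Pearson 95% intervals, and these and the limits of a count of 0 (3 counts) cover counting error only. UMIs of 1 cell are not independent, so the intervals are too narrow.

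On simulated counts with 200 genes changed by 2-fold the fits recovered 100% (CD8 against CD4, 11514 genes), 88% and 91% (PPCA in CD4 and CD8, 11469 and 11496 genes), 89.5% (Foxp3, 10264 genes) and 98.5% (Ccl5, 10286 genes), with 6, 10, 5, 12 and 15 false calls. These rates are not split by expression level, so they do not tell the recovery for segments with as few counts as most V segments. Named segments were the 6 Trav and 6 Trbv of highest mean usage, up to 8 called segments per direction that moved the same way in every library or day, the leading segment of each gate and library, Trav11, Trav11d and Trav1, and the 3 most frequent pairs. Of other genes, Trac, Trbc1, Trbc2 and up to 6 called receptor genes per comparison were named. Further called segments that did not move the same way throughout (such as Trav5-4, and Trbv3, Trav16n and Trbv16 beside Ccl5), segments that did not pass, the single-library segments and the pairs with Trbv3, Trbv13-3 and Trbv17 were chosen after their values were seen. The members and lists were chosen with earlier results of these data known. Alternatives were DESeq2 1.42.0, its size factors, usage offsets, no low-count filter, every barcode, no doublet removal, subgroup sums, thinning to 2000 UMIs, no block and leaving out libraries. The interaction terms, the fits without the 4 libraries with Y-linked transcripts and those with these as a factor were added after seeing the data.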

Additional observations from a re-analysis of the deposited data

How the results depend on the processing

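The 20 named segments called in the CD8 to CD4 comparison kept their direction under every alternative fitted to single segments. Of them, 16 stayed past the threshold under each. Subgroup sums are not part of that count. With copies summed the Trbv13 subgroup was lower by 0.27 (log2), although Trbv13-3 was higher. The count of 42 was 37 to 42 when 1 library was left out. It was 18 when cells were thinned, 25 with no replicate block and 23 with copies summed. Thinning left out 1299 shallow cells, set the gates anew on the thinned counts and left fewer genes to test. In the onset library the CD4 gate then held 2828 cells in place of 4755 and the CD8 gate 1899 in place of 1987. For Ccl5 the 14 called segments kept their direction under the alternatives fitted to single segments and 3 stayed called under each of these. Their count was 11 to 15 without 1 library, 9 with DESeq2, 25 with no low-count filter, 5 when thinned, 6 with no replicate block, 8 with copies summed and 9 without the 4 libraries with Y-linked transcripts. The Foxp3 count of 3 was 2 to 4 without 1 library, 1 relative to the chain, 8 with no low-count filter, 5 with no doublet removal, 1 when thinned, 1 with no replicate block and 5 with copies summed, and Trav16n turned to 0.14 when thinned. With PPCA, no low-count filter gave 2 calls in CD4 and 1 in CD8 cells, and the Y-linked factor gave 4 in CD8. Leaving out 1 harvest day gave 0 to 3 in CD8, the 3 without day 4. Relative to the chain, PPCA values turned in CD4 to -0.19 (Trav16n), -0.051 (Trav3-3), -0.25 (Trbv2) and -0.045 (Trbv13-2), and in CD8 to -0.10 (Trav16n) and -0.36 (Trbv2). Thinned, they were -0.059 (Trav16n) and -0.19 (Trbv2) in CD8. Trbv2 was -0.091 and -0.022 in CD4 and -0.10 and -0.27 in CD8 without days 2 and 3, and Trbv13-2 -0.057 in CD4 without day 2. None of these had passed the test. Counted once per cell, Trbv2 took 11.8% in T and 13.7% in CD4 cells. With at least 2 UMIs required per segment, both chains were read in 0.907% of T cells, and 0.799% of the 6006 cells with at least 2 Trbv UMIs had 2 or more Trbv subgroups. A cell with only 2 Trbv UMIs cannot meet that rule but stays in the base, so this share falls by the rule itself. It does not tell how many cells hold more than 1 beta segment. The cause of the other shifts was not tested.

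Depth limits what can be read. Only 65 of the 163 segments could be tested between the gates and 39 and 31 in the Foxp3 and Ccl5 comparisons. Shares in Foxp3-positive CD4 cells rest on 41 to 151 Trav UMIs a library.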
